A study of Homo sapiens with 2 samples.

Results

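The genes described here are FGA, FGB and FGG, which encode the alpha, beta and gamma chains of fibrinogen, and FGL1, which encodes fibrinogen-like 1. They were chosen by symbol, from array rows annotated with 1 gene, and with their values in these data known. All 4 had a row of their own, out of 22411 genes with such a row. The cells were MHCC97H, an established liver cancer line of human origin, and their RNA was read on 2 Affymetrix whole-transcript arrays. The control array held RNA of MHCC97H cells with the genotype control, described in the labels as high in GP73, and the other held RNA of the same line with GP73 knocked down. GP73 is a Golgi membrane protein encoded by GOLM1. Both cultures were grown in medium with 10% serum and had no other treatment. Titles of the arrays carry the marks shv and shGP73. The knockdown sequence, like the question whether either culture was a clone or a pool, is not stated in the sources used here. Each condition was measured once, so the values below have no replicate error and the conditions were compared without a p-value. A difference is the log2 signal in the knockdown array minus that in the control array, in the signals as the authors deposited them.

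Fibrinogen is the soluble plasma protein that thrombin turns into the fibrin of a blood clot. It is assembled in the endoplasmic reticulum of hepatocytes from paired sets of the alpha, beta and gamma chains, and its genes lie side by side, with FGB read in the opposite direction to FGA and FGG. Their promoters are known to use C/EBP factors, and interleukin-6 acting through STAT3 raises all of them in the acute phase response. FGL1 is also secreted by hepatocytes and shares the fibrinogen C-terminal domain, lies on another chromosome, takes no part in clots in the way the chains do, and is known as a ligand of the T cell receptor LAG3.

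The chain genes sit in 1 cluster and were all lower in the knockdown array, so the stretches just before their starts are shown. Each is the 250 bases before the annotated start, from the RefSeq table of GRCh38.p14, written 5′ to 3′ on the strand of its gene. Capitals mark matches, on either strand, to the interleukin-6 response element core CTGGGA, the STAT3 pattern TTCNNNGAA and the C/EBP pattern TTGCNNAA, in which N is any base. For FGB, which has 2 annotated starts in that table, the upstream one was used. The window of FGA lies at chr4:154590743-154590992 on the minus strand. That of FGB lies at chr4:154562730-154562979 on the plus strand and that of FGG at chr4:154612657-154612906 on the minus strand.
FGA promoter: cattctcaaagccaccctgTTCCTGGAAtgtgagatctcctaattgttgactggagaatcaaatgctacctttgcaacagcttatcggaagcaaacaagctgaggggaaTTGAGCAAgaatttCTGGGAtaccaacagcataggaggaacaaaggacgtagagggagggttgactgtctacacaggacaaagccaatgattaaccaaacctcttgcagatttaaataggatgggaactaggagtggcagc
FGB promoter: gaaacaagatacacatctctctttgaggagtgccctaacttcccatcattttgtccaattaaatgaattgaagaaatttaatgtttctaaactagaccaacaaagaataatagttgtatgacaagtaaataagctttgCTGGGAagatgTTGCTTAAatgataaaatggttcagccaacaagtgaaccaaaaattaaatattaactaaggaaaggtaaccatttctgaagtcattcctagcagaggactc
FGG promoter: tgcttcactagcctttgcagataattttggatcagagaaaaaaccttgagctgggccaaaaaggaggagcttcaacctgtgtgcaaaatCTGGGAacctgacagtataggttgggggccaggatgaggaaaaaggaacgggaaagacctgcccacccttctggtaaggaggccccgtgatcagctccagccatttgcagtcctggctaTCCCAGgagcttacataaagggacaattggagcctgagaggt

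All 3 chain promoters held CTGGGA, which was in 28.7% of the 27305 promoters of the table. In FGA it began at base -127 from the start and in FGB at base -112, and FGG had a match on its own strand at -161 and another on the opposite strand at -42. FGA and FGB also held a C/EBP match, in FGA at -141 on the opposite strand and in FGB at -101 on its own strand, against 9.12% of promoters. FGA alone of the chains had a STAT3 match, at -231, against 6.76%. No match overlapped another. The C/EBP pattern and CTGGGA stood together in 2.29% of promoters. The glucocorticoid half-site TGTTCT and TATAAA, also searched, were in none of these windows and in 12.4% and 11.2% of promoters. These matches are letters in a window, and binding was not measured. The promoter of FGL1 was not analysed here.

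**Figure D1:**
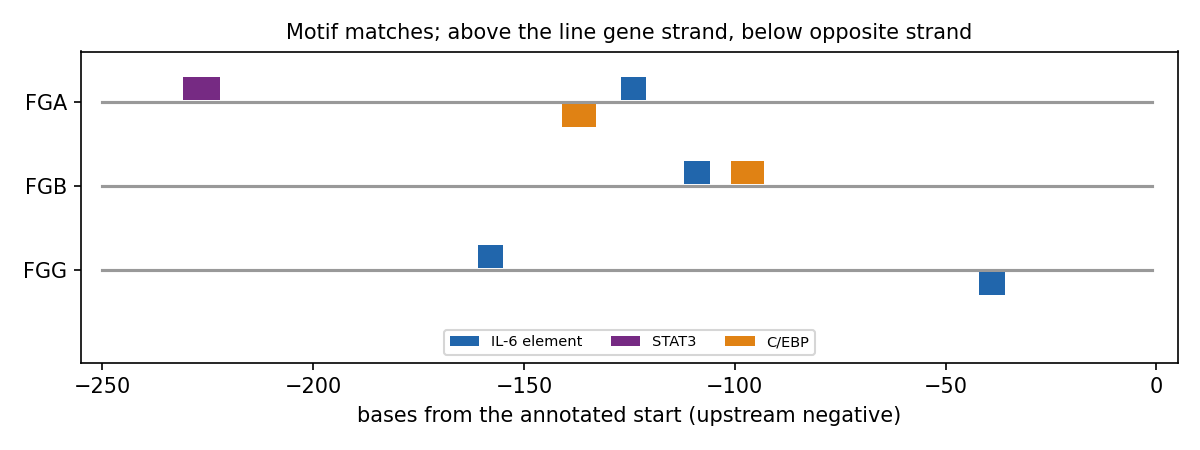
Motif matches in the 250 bases before the annotated starts of FGA, FGB and FGG (x axis, bases from the start). Coloured blocks are matches, above each line on the strand of the gene and below it on the opposite strand. FGA and FGB share C/EBP and interleukin-6 element matches, and FGG holds only interleukin-6 element matches.

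The arrays were first checked against their labels. GOLM1, the targeted gene, gave log2 signals of 9.13 (control) and 7.46 (knockdown) and was 3.18-fold lower. A gene is called measured where its higher log2 signal reached 5.84, the median of that quantity over all genes, which stands in for a detection call that the deposited table does not hold. Of the 22411 genes 11206 were measured. Signals of the keratins KRT8 (10.94 and 10.84) and KRT18 (10.90 and 10.85) and of the apolipoprotein gene APOH (9.07 and 8.87) were high in both arrays. Of the 13 liver and liver cancer markers with a row 7 were measured. The hepatocyte gene ALB, with signals of 4.35 and 3.76, was below the floor. So were AFP, with 2.56 in both arrays, TTR, AHSG, GPC3 and EPCAM. The liver origin is therefore taken from the labels and was not tested with these markers.

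Both FGA and FGB were lower in the knockdown array by more than 1 on the log2 scale, whereas FGG and FGL1 were lower by less than 0.5 and were dim in both arrays. FGA, the chain that carries fibrinopeptide A, which thrombin removes first, gave log2 signals of 6.10 (control) and 4.97 (knockdown). The difference was -1.13. FGA was the only one of the 4 genes to reach the floor, and it did so in the control array alone, so it counted as measured through the array in which it was high. Taken against the floor instead of its own knockdown signal, FGA was at least 1.19-fold lower.

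FGB, whose chain carries fibrinopeptide B, had signals of 5.13 and 3.93, a difference of -1.20. Both values lie below the floor, so no fold is given. FGG, whose chain carries the platelet integrin binding site at its end, had signals of 2.85 and 2.38, a difference of -0.47. FGL1 had 3.78 and 3.42, a difference of -0.37. The control array was thus the higher for each of the 4 genes, with a median difference of -0.80, while 37% of all genes with a row and 50.5% of measured genes had a lower signal in the knockdown array. With 1 RNA preparation per condition, fewer cells that express these genes and less of their RNA per cell cannot be told apart.

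**Figure D2:**
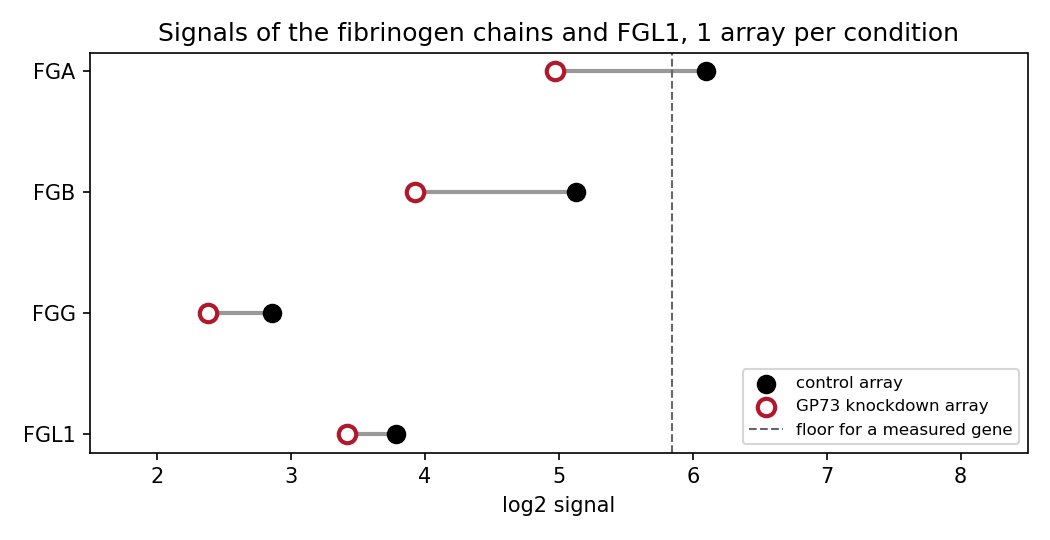
Log2 signals (x axis) of FGA, FGB, FGG and FGL1 in the control array (filled) and the GP73 knockdown array (open), 1 array each, with the floor of 5.84 dashed. Each gene is higher in the control array, and only FGA in the control array, at 6.10, passes the floor.

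How often a difference of this size occurred was read from all genes. A threshold of 1.5-fold lower, a difference of -0.58, was passed by FGA and FGB, 2 of the 4 genes, against 1.25% of all genes with a row and 1.55% of measured genes. A difference of -1 or lower was found for 23 genes, 0.103% of those with a row, and FGA and FGB were 2 of them. Counted from the lowest difference, FGB stood at rank 9 and FGA at rank 11 of 22411, FGG at rank 622 and FGL1 at rank 1330. With 32 added to each linear signal, which shrinks differences between dim values, FGB stood at rank 143 and FGA at rank 37, and FGB no longer passed 1.5-fold. These genes were chosen for their values, so the ranks describe the choice and do not test it.

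Dim genes as a whole leaned the other way. Over the 3209 genes whose mean signal lay within 0.5 of that of FGB, the median difference was 0.13, and 1.06% were at least 1.5-fold lower, against 0.955% around FGA. None of them was as low as FGB. Around FGA, 1 of 4923 genes of like signal was as low or lower, with a median of 0.13. Around FGG, 30 of 1746 genes, or 1.72%, were as low or lower, and around FGL1 75 of 2492, or 3.01%. The differences of FGG and FGL1 were therefore below the 5th percentile of genes of like signal, -0.25 and -0.24, but above the 1st, which was -0.59 for both.

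**Figure D3:**
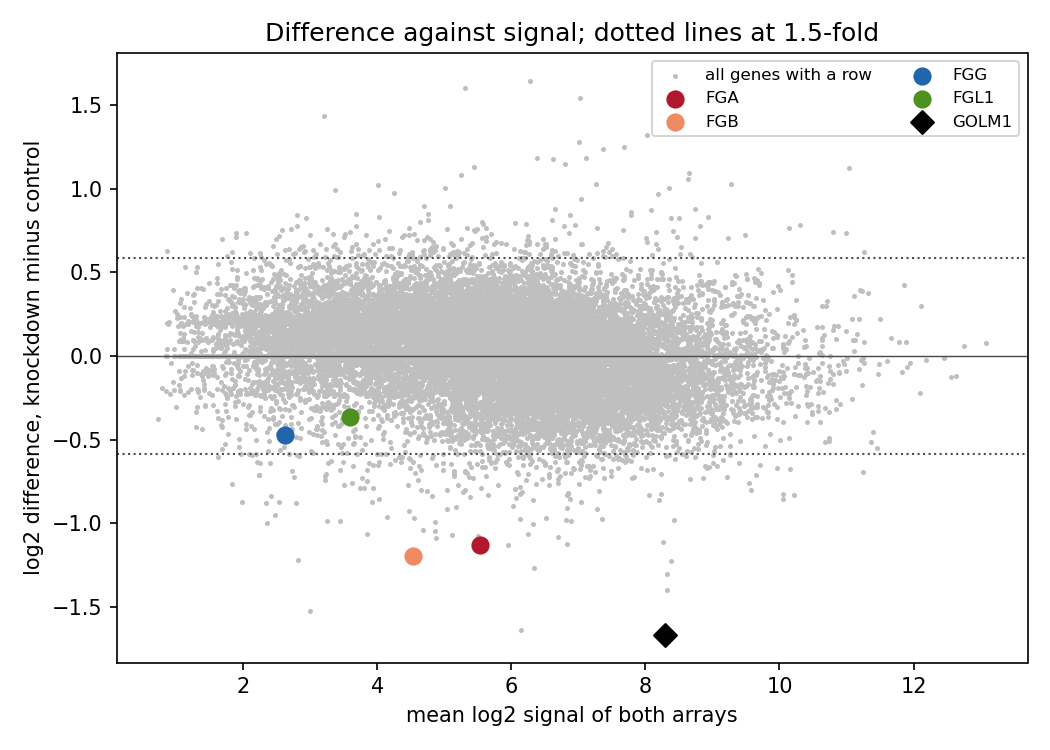
Log2 difference, knockdown minus control (y axis), against the mean log2 signal of both arrays (x axis) for all 22411 genes in grey, with FGA, FGB, FGG, FGL1 and GOLM1 marked and dotted lines at 1.5-fold. FGA and FGB lie below most of the cloud at their signal, and FGG and FGL1 lie at its lower edge.

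The array offers 1 indirect measure of its own error, from genes represented by 2 rows. Rows of the same gene gave differences with a pooled SD of 0.196 where both rows were below the floor (161 genes) and of 0.133 where both were above it (99 genes). Variation between cultures, RNA preparations and hybridisations is outside this SD. FGA and FGB differed from each other by 0.07, less than that SD. The difference of FGB minus that of FGG was -0.73, and that of FGA minus that of FGG was -0.65. FGG was so dim in the control array that these gaps do not show that FGG changed less. None of the 4 genes had a second row, so no second measurement could be set beside its own.

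A further description of dim signal came from 359 olfactory receptor genes, which were chosen after the values had been seen. Whether these cells express any of them was not tested. The log2 signals of the 359 had a median of 2.85 and a 95th percentile of 4.77 (control), or 3.07 and 5.03 (knockdown). Not all were dim, the highest signal being 8.11 (control) and 8.08 (knockdown). In the control array 99.4% of the 359 lay below the signal of FGA, 96.9% below FGB, 78.0% below FGL1 and 50.1% below FGG. In the knockdown array the shares were 94.4%, 75.5%, 61.0% and 26.7%. FGG therefore stood at the middle of these receptor genes in the control array. FGA and FGB stood above their 95th percentile in the control array and below it in the knockdown array. Probes differ in affinity, so these shares describe signals and do not rank transcripts. The receptor genes had a median difference of 0.21, and none was as low as FGA or FGB, the lowest being -0.99. FGA and FGB were chosen with their differences known, so this describes the choice and does not test it.

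The size of each difference depended on how dim signal was weighted. With 32 added to each linear signal before the log, FGA stood at -0.67, FGB at -0.50, FGG at -0.076 and FGL1 at -0.10, and only FGA still passed the 1.5-fold threshold. Under median centring, quantile normalisation and removal of the trend over signal, FGA lay between -1.23 and -1.12 and FGB between -1.32 and -1.19. None of these scalings turned the direction of any of the 4 genes.

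**Figure D4:**
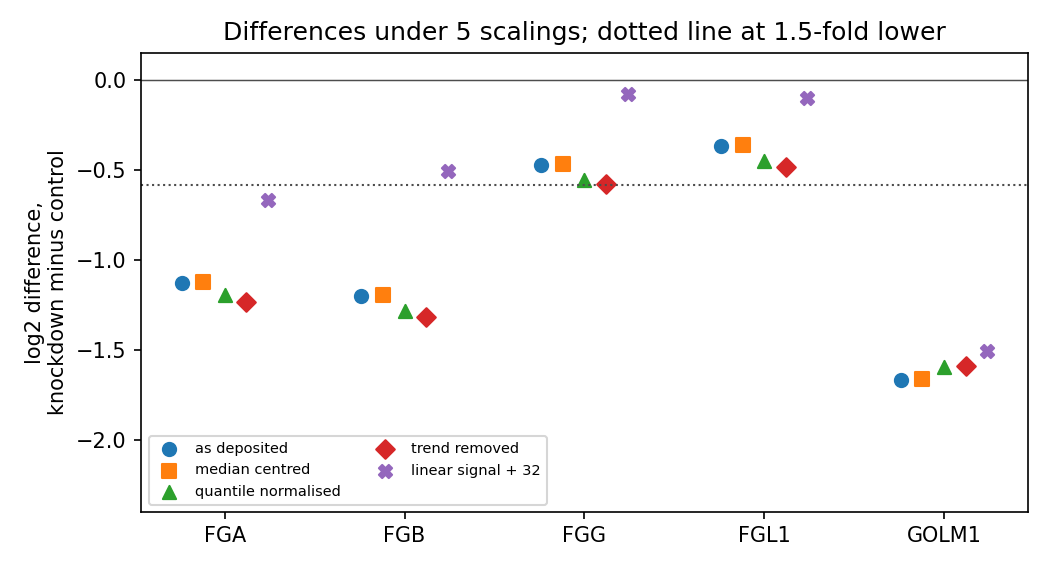
Log2 difference, knockdown minus control (y axis), of FGA, FGB, FGG, FGL1 and GOLM1 under 5 scalings, with the dotted line at 1.5-fold lower. All values are below 0. The scale with 32 added to the linear signal brings FGG to -0.076 and FGL1 to -0.10 and leaves GOLM1 at -1.51.

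The genes beside the cluster were looked at next. On each side the 5 nearest genes with a row were taken, in the order of the RefSeq table. Of these 10 genes none was at least 1.5-fold lower or higher, beside 1.25% and 1.16% of all genes with a row. With shares that small, a count of none in 10 genes says little. Their differences ran from -0.44 to 0.44 with a median of 0.16. PLRG1, which lies next to FGB and encodes a spliceosome component, was the only one measured, with signals of 8.06 and 7.62, a difference of -0.44. LRAT, the retinol-esterifying enzyme gene next to FGG, had 4.11 and 3.97, a difference of -0.14. The other genes before the cluster were TLR2, an innate immune receptor, at 0.23, RNF175 at 0.21, SFRP2, a secreted Wnt modulator, at 0.44, and DCHS2 at 0.09. Those after it were RBM46 at 0.21, the neuropeptide Y receptor gene NPY2R at 0.36, MAP9 at 0.04 and GUCY1A1 at 0.11. None of these genes had a difference as low as FGA or FGB, but 9 of them were dim in both arrays. Around FGL1 none of 10 neighbours passed 1.5-fold, again near the share of all genes, with differences from -0.44 to 0.40. They included the arginine transporter gene SLC7A2 at -0.44, MTUS1 at -0.16, PCM1 at -0.26, the acid ceramidase gene ASAH1 at -0.23, PSD3 at -0.10, PDGFRL at 0.40, RNA5SP256 at 0.20, MTMR7 at 0.08, and the acetyltransferase genes NAT1 at 0.00 and NAT2 at 0.09.

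Genes that are known to drive fibrinogen transcription showed small differences. Among the transcription factors of fibrinogen genes 10 of the 14 with a row were measured, 4 higher and 6 lower, and none passed 1.5-fold in either direction, against 1.08% of measured genes higher and 1.55% lower. Their median was -0.11, beside -0.01 for all measured genes, of which 50.5% were lower. The largest were FOXA2, a liver pioneer factor, at -0.26, NFE2L1 at -0.18, CEBPD, an acute phase C/EBP factor, at 0.17 and USF1 at -0.13. CEBPA and CEBPB, looked up outside the rule for named genes, stood at 0.02 and -0.10.

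In the pathway from interleukin-6 to STAT3 most measured genes were slightly higher. Of 17 genes with a row 11 were measured, 10 higher and 1 lower, with a median of 0.19. Of all measured genes 50.5% were lower, with a median of -0.01. In this pathway none passed 1.5-fold, against 1.08% of measured genes higher and 1.55% lower. PIAS3, an inhibitor of STAT3, stood at 0.33, the cytokine IL11 at 0.32, the receptor chain IL6R at 0.30, with signals of 7.40 and 7.70, and the feedback inhibitor SOCS3 at 0.23. STAT3 itself had signals of 8.06 and 8.15. Interleukin-6, IL6, was below the floor in both arrays, at 4.25 and 4.49.

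Among other acute phase genes with a row CP alone was lower past 1.5-fold, as FGA and FGB were. The share that low was 1.55% of measured genes and 1.25% of all genes with a row. SAA1, SAA2, SAA4 and APCS, also in this list, had no row of their own. Of the 20 genes with a row 5 were measured, 2 higher and 3 lower, with a median of -0.02, while the median of all 20 was 0.14. CP, the copper-carrying ferroxidase ceruloplasmin, had signals of 8.82 and 7.71, a difference of -1.11. HAMP, the iron hormone hepcidin, stood at 0.41, VNN1 at 0.30 and LCN2, lipocalin, at -0.08. The remaining 15 were below the floor, and 4 of them were looked up outside the rule for named genes. C3 had signals of 5.20 and 5.39, CRP 3.84 and 4.11 and HP, haptoglobin, 4.32 and 4.49. C4BPA was lower, with 5.59 and 5.10, a difference of -0.49. Of all 20 genes 5 were lower by any amount, against 37% of all genes with a row. Plasma proteins that fall in inflammation had a median of 0.23 over 5 measured genes, with the retinol carrier RBP4 at 0.41, F12 at 0.23, APOA2 at 0.23 and APOA1 at 0.14. ALB, not measured, stood at -0.59.

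Measured genes that act on fibrinogen or fibrin showed small differences, apart from F3. F5, below the floor in both arrays, stood at -0.80. Of all measured genes 50.5% were lower by any amount. For scale, all genes with a mean log2 signal from 5 to 6 had a median difference of 0.13, those from 6 to 7 one of 0.02 and those from 7 to 8 one of -0.06. In the list of fibrin formation and crosslinking 7 of 16 were measured, 6 higher and 1 lower, with a median of 0.10. F3, tissue factor, which starts clotting, had signals of 6.56 and 7.50, a difference of 0.94, and alone passed 1.5-fold among the measured genes. TFPI, which inhibits the tissue factor pathway, stood at -0.32, PROC, protein C, at 0.18 and the crosslinking enzyme TGM2 at 0.14. F2, prothrombin, had 6.17 and 6.28. In the list of fibrin breakdown 8 of 9 measured genes were higher, with a median of 0.13. None passed 1.5-fold, against 1.08% of measured genes higher and 1.55% lower. They included the plasminogen activator PLAT at 0.38, the urokinase receptor PLAUR at 0.30, F12 at 0.23 and the plasmin inhibitor SERPINF2 at 0.20.

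Relatives and partners of the 4 proteins showed no difference past 1.5-fold, against 1.16% of all genes with a row higher and 1.25% lower. Of all measured genes 50.5% were lower by any amount. Of the 17 other fibrinogen-domain genes with a row 5 were measured and all 5 were higher, with a median of 0.16. They were TNXB, a tenascin, at 0.24, the ficolins FCN1 at 0.17 and FCN2 at 0.10, ANGPTL4 at 0.16 and FIBCD1 at 0.14. FGL2, the fibrinogen-like gene named after FGL1, had signals of 3.09 and 2.87. Among cell surface binders 6 of 8 measured genes were higher, with a median of 0.12, including the integrins ITGAX at 0.22, ITGB2 at 0.20 and ITGAV at 0.16 and the hepatocyte asialoglycoprotein receptor ASGR1 at 0.20. LAG3, the receptor of FGL1, was below the floor, at 5.48 and 5.65. In the list of endoplasmic reticulum folding and export, 16 of 20 measured genes were lower, against 50.5% of all measured genes. The median of this list was -0.13 and none passed 1.5-fold. DNAJC3 stood at -0.52, HYOU1 at -0.51, the coat subunit SEC23B at -0.31 and calnexin, CANX, at -0.30. The measured genes of this list had mean signals from 6.56 to 10.99. All genes with a mean signal from 8 to 9 had a median difference of -0.09, those from 9 to 10 one of -0.06 and those of 10 or more one of -0.06.

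**Figure D5:**
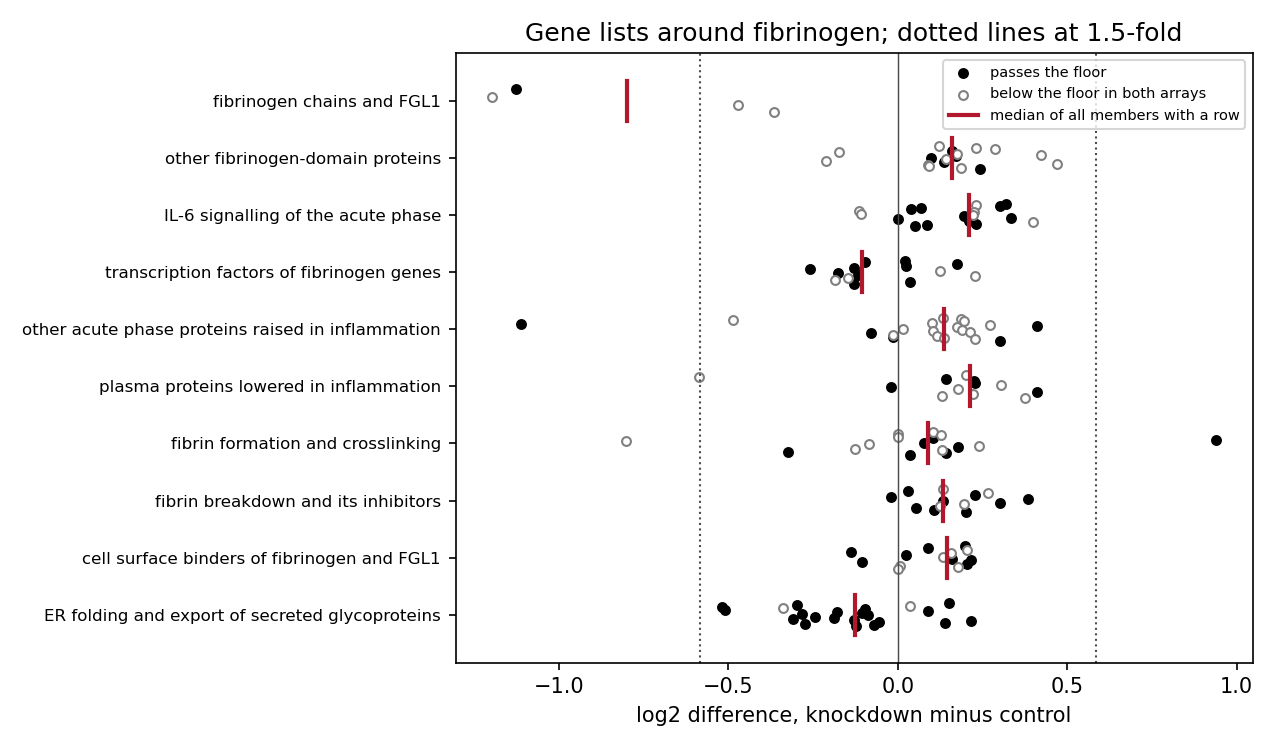
Log2 difference, knockdown minus control (x axis), of each gene with a row in 10 lists, filled where the gene passes the floor and open where it does not, with red bars at the list medians and dotted lines at 1.5-fold. FGA, FGB, CP, F5 and ALB lie past 1.5-fold lower and F3 past 1.5-fold higher.

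Across the 10 lists, 145 different genes had a row. Of these 5 were at least 1.5-fold lower, FGB, FGA, CP, F5 and ALB, and 1 was at least 1.5-fold higher, F3, beside 1.25% and 1.16% of all genes with a row. The 145 include the 4 genes chosen with their values known, and FGA and FGB are 2 of the 5. The lists too were chosen with earlier results known, so this count describes the choice and does not test it. F5, coagulation factor V, had signals of 5.71 and 4.91, a difference of -0.80; it was below the floor and was named after its value was seen.

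With 2 arrays, the likeness of another gene to these can be judged only from its difference. The 3 measured protein-coding genes closest to FGA were CP at -1.11, SPTSSB, a subunit of serine palmitoyltransferase, at -1.08 and FMO5, a flavin monooxygenase, at -1.005. Those closest to FGB were CP, the protease gene MMP7 at -1.30 and SPTSSB. TRA2A, GTF3C3 and EIF4H shared a difference of -0.47 with FGG, and GCC2, TMEM65 and BBS4 one of -0.37 with FGL1. At those sizes many genes are equally close.

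Of 37 markers of other cell types with a row 12 were measured, 1 of them, PECAM1, at least 1.5-fold lower and none as much higher. The shares over all measured genes were 1.55% and 1.08%. Of 8 platelet markers 3 were measured, PF4 at 0.23, GP1BA at 0.40 and GP9 at 0.41, and the log2 of the summed signal was 8.51 (control) and 8.77 (knockdown). Of 10 leukocyte markers 3 were measured, with summed signals of 9.71 and 10.14, most of it from CD68, at 9.25 and 9.74. The leukocyte gene PTPRC was at 2.34 and 2.42. Of 10 endothelial markers 5 were measured, with summed signals of 8.83 and 8.89. PECAM1, an endothelial and platelet adhesion molecule, had 5.98 and 5.26, a difference of -0.72 in the direction of FGA and FGB. It passed the floor in the control array alone. KDR stood at -0.06, while the other 3 measured endothelial markers were higher, ENG at 0.32, LYVE1 at 0.19 and CLEC4G at 0.16. Of 9 fibroblast markers with a row 1 was measured, with summed signals of 7.99 and 8.19. The summed level of each of these 4 lists was higher in the knockdown array. Dim genes as a whole were too, with a median difference of 0.13 for mean signals from 5 to 6. The hepatocyte and liver cancer markers had summed signals of 12.30 and 12.22. Of their 7 measured members 6 were lower, against 50.5% of all measured genes, and none passed 1.5-fold. The part of these markers in the differences of the fibrinogen genes was not tested.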

How the data were processed

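The deposited table held log2 signals, 1 per row and array, which the authors made in Affymetrix Expression Console according to the submitters' processing notes. The sources used here state neither background correction nor scaling, log base or genome build. That the scale is log2 was read from the range of the values, with medians of 4.72 (control) and 4.80 (knockdown). Of 70523 rows 23781 had 1 gene symbol, updated through the RefSeq gene table of GRCh38.p14. Where a gene had several rows, the one with the highest mean stood for it. The floor was the 50th percentile of the higher signal. With 1 array per group no test was possible, the number of arrays limits the precision, and results are differences, counts and medians.

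The genes and lists were chosen with earlier results of these data known. Named are the 4 genes, GOLM1, the neighbours and the 3 nearest genes per member. Added to these are up to 4 measured genes per list with the largest absolute difference. Others are marked or serve as checks. STAT3, IL6, F2, LAG3, FGL2, KDR and PTPRC were also named outside this rule, after their values were seen. A planned comparison of protein sequences was not run, and a further promoter motif is not reported here. Python 3.11.15, pandas 2.3.3 and statsmodels 0.14.6 were used. The signals as deposited, trend removal and quantile normalisation were tested on simulated data, with changes put only into genes above the floor. Median centring and the scale with 32 added were not tested in this way.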

Additional observations from a re-analysis of the deposited data

How the results depend on the processing

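With 1 array per condition no replicate could be left out. No paired analysis was possible because each group holds 1 array. As no replicate spread exists, a difference counted as moved when it changed by more than the SD of 0.133 between rows of 1 gene. Median centring, quantile normalisation and trend removal moved none of the differences of FGA, FGB, FGG, FGL1 and GOLM1 by that much. With 32 added to the linear signal these stood at -0.67, -0.50, -0.076, -0.10 and -1.51, 1 of the 4 fibrinogen genes was at least 1.5-fold lower, and the measured genes at least 1.5-fold and 2-fold lower numbered 66 and 6, against 174 and 15 as deposited. That scale shrinks differences between dim signals by construction. On it FGA ranked 37 and FGB 143 from the lowest of all genes, FGG 5211 and FGL1 4484. Without a floor 281 and 23 genes were that much lower, as more genes are counted. With the floor at the 75th percentile, a log2 signal of 6.94, 9 were at least 2-fold lower and 0 of the 4 genes passed the floor. With the 50th percentile floor applied to the 4 genes too, a setting added after the data had been seen, 1 was counted. The table holds no detection call, so how far the signals of FGB, FGG and FGL1, all below the floor, stand above background is not known.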

Other observations

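Among liver plasma genes below the floor in both arrays, looked up after their values were seen, C4BPA, which encodes a complement inhibitor and is also an acute phase gene, had signals of 5.59 and 5.10, a difference of -0.49. The antithrombin gene SERPINC1 had 3.33 and 3.46, and PLG, plasminogen, had 3.35 and 3.55. APOB, the main protein of low density lipoprotein, was measured and had 6.27 and 5.80, a difference of -0.47.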
